A study of Gallus gallus with 24 samples.

Results

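The enzymes described here belong to 9 families that oxidise, reduce, hydrolyse or conjugate foreign compounds, steroids, retinoids and aldehydes in the liver. Members were taken by gene symbol from the probe annotation, namely the cytochromes P450 (CYP), flavin-containing monooxygenases (FMO), alcohol dehydrogenases (ADH), aldehyde dehydrogenases (ALDH), aldo-keto reductases (AKR), epoxide hydrolases (EPHX), glutathione S-transferases (GST), sulfotransferases (SULT) and UDP-glycosyltransferases (UGT). The choice gave 58 genes on 91 spots, out of 14855 features tested (6385 genes with a symbol and 8470 unnamed spots). All 58 passed the filter on missing values, 57 with a value on all 24 arrays and CYP46A1 on 23. The cytochromes P450 contributed 20 genes, the aldehyde dehydrogenases 11, the aldo-keto reductases, glutathione S-transferases and sulfotransferases 6 each, the alcohol dehydrogenases and epoxide hydrolases 3 each, the UDP-glycosyltransferases 2 and the flavin-containing monooxygenases 1.

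Liver RNA of chickens of the fat line (FL) and of the lean line (LL) was compared on 24 two-colour cDNA arrays, each with 1 FL and 1 LL sample of the same age. Both lines had been selected in opposite directions on abdominal fat weight over 7 generations, and all birds were raised under standard broiler conditions. Livers were sampled every 2 wk from 1 wk to 11 wk of age, giving 6 ages with 4 arrays each. The FL sample was in channel 1 (Alexa Fluor 555) on replicates 1 and 3 of each age and in channel 2 (Alexa Fluor 647) on replicates 2 and 4. The labels do not say whether the replicates of an age held separate birds, so p-values measure the spread between these arrays, which may in part be technical. In whole liver RNA, fewer cells of a type and less RNA per cell cannot be told apart.

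The liver clears lipid-soluble compounds in steps. Monooxygenases of the CYP and FMO families introduce or expose a reactive group, dehydrogenases and reductases interconvert alcohols, aldehydes, ketones and acids, and epoxide hydrolases open epoxides to diols. Transferases then attach glutathione, sulfate or a sugar, after which the product leaves the cell through transporters. Many of the same enzymes also serve endogenous substrates such as bile acids, steroids, retinoids, carnitine precursors and amino acids.

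Neither base nor direction of the deposited log ratios is stated, and arrays with swapped dyes may or may not have been turned before deposit. Ratios are therefore read as log2 and in 2 ways. In the first, each ratio was turned by the dye labels, so that a positive turned ratio stands for FL over LL under the assumption of a column that holds channel 2 over channel 1. In the same fit the common term is the mean ratio shared by all arrays with the sign as deposited. It is a dye effect if the columns were left as scanned and a genotype difference if they had been turned before deposit, and these cannot be told apart. The second reading takes the columns as deposited at each age. Values are thus called positive or negative, and not higher in FL or LL.

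On 23 arrays the median log2 ratio lay between -0.02 and 0.03, whereas it was 0.33 on 7 wk replicate 1. Replicate 1 of 7 wk and replicate 4 of 11 wk were more alike than any other pair of arrays (r = 0.80 across 14855 features, next pair 0.70). On 1 wk replicate 4 the profile ran against the mean of the other arrays, with r = -0.56 across the 58 enzyme genes and -0.31 across all features. For 1 wk replicate 3 these values were -0.34 and -0.04. The direction of 1 wk replicate 4 is therefore not settled, and the counts of called genes were also computed with its sign turned. As deposited, 1 wk replicates 3 and 4 had r = 0.56 with each other across 14855 features. Turning only replicate 4 sets it against replicate 3, so this alternative does not settle the direction of either. On the other 22 arrays r across the enzyme genes ranged from 0.11 on 5 wk replicate 3 to 0.82 on 1 wk replicate 2. The liver marker genes were measured, with ALB, TTR and APOH among them, but ratios do not show their level.

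In the common term the enzyme genes leaned to the negative side. Of 58 genes, 29 (50%) passed an adjusted p of 0.05 in limma, against 37.6% of all features (47.0% at an unadjusted p under 0.05). Of these 29, 23 were negative (39.7% of the enzyme genes against 13.5% of all features) and 6 were positive (10.3% against 24.2%). The median was -0.08 over the enzyme genes and 0.02 over all features. With each array centred on its median, 28 enzyme genes were negative and 6 positive, while all features split into 3036 negative (20.4%) and 3127 positive (21.1%), against 2001 and 3590 without centring. Without 7 wk replicate 1, 11 wk replicate 4 and 1 wk replicates 3 and 4, 30 enzyme genes were negative (17.8% of all features) and 6 positive (21.7%). The same sign was found on at least 20 of 24 arrays for 17 enzyme genes (29.3%), against 18.2% of all features.

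**Figure D1:**
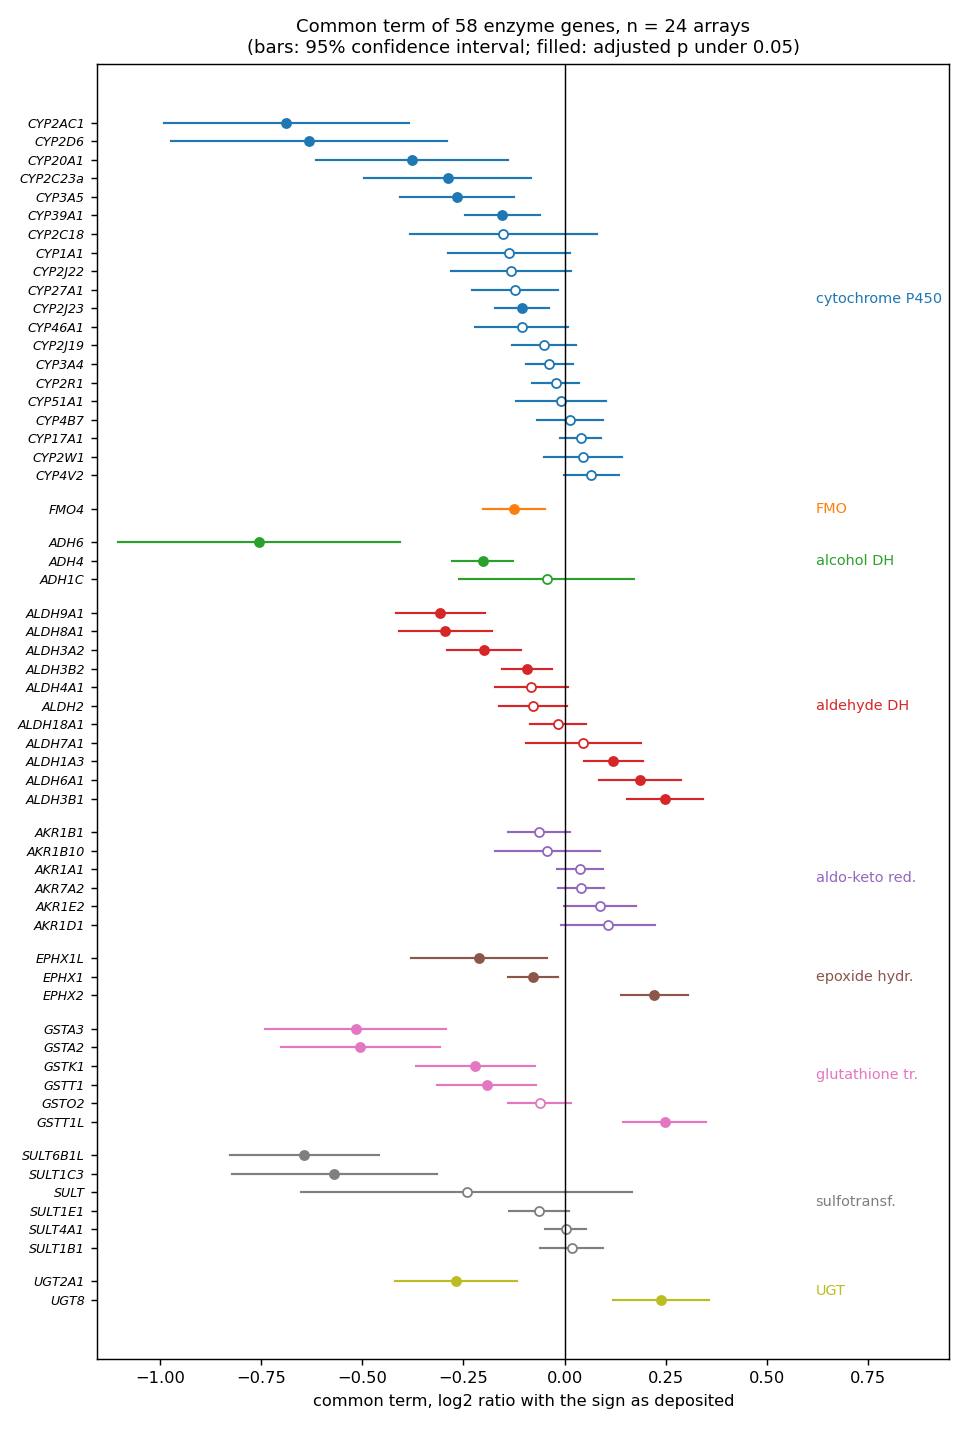
Common term of the 58 enzyme genes by family, as log2 ratio with the sign as deposited (points), with 95% confidence intervals (lines, n = 24 arrays) and filled points where the adjusted p was under 0.05. Filled points lie mostly to the left, from -0.76 for ADH6 to -0.08 for EPHX1, and 6 lie to the right, from 0.12 for ALDH1A3 to 0.25 for ALDH3B1.

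Among the 20 cytochromes P450, 7 were negative in the common term and 0 were positive, where 13.5% and 24.2% of all features were. The family median was -0.11, and 8 of the 20 had an unadjusted p under 0.05 (47.0% of all features). CYP2AC1, a member of the CYP2 family, had ratios from -2.25 to 1.04 over 24 arrays with a median of -0.62, and it was negative on 21. Its common term was -0.69 ± 0.14 (SE, n = 24 arrays, limma adjusted p = 0.00129), or 1.61-fold. CYP2D6, a drug-oxidising enzyme in human, ranged from -2.01 to 1.73 with a median of -0.74 and a common term of -0.63 ± 0.16 (adjusted p = 0.00556), and 1 wk replicate 4 gave the highest value. CYP20A1, an orphan enzyme with no assigned substrate, ranged from -1.19 to 1.05 with a median of -0.49 and a common term of -0.38 ± 0.11 (adjusted p = 0.0139). All 3 genes were positive on 1 wk replicates 3 and 4.

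The other 4 cytochromes P450 past the threshold had smaller values. CYP3A5, a drug and steroid oxidase in human, had -0.27 ± 0.07 (negative on 18 of 24 arrays, adjusted p = 0.00479), and CYP39A1, which hydroxylates an oxysterol on the way to bile acids, had -0.15 ± 0.04 (negative on 21, adjusted p = 0.0110). CYP2J23 had -0.11 ± 0.03 (negative on 18, adjusted p = 0.0137). Its 2 spots, fitted on their own, had -0.22, which was called, and 0.01, which was not. CYP2C23a had -0.29 ± 0.10 (negative on 15, adjusted p = 0.0272), and its adjusted p rose to 0.137 in 1 of the 5 alternatives in which the call was lost, among them the one with 1 wk replicate 4 turned. Bile acid synthesis was represented also by CYP27A1, the sterol 27-hydroxylase, at -0.12 ± 0.05 (adjusted p = 0.0631). It is the mean of 3 spots. Fitted on their own in limma, 1 was called at -0.33 (adjusted p = 8.2e-04), and the others had 0.02 and -0.07 and did not pass. CYP51A1 of cholesterol synthesis had -0.01 ± 0.05, CYP46A1, the cholesterol 24-hydroxylase, -0.11 ± 0.05 on 23 arrays, CYP2R1, a vitamin D hydroxylase, -0.02 ± 0.03, and CYP17A1 of steroid synthesis 0.04 ± 0.02. CYP1A1, which responds to the aryl hydrocarbon receptor, had -0.14 ± 0.07 (adjusted p = 0.140). The 13 cytochromes P450 that did not pass ranged from -0.15 for CYP2C18 to 0.07 for CYP4V2.

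FMO4, which oxygenates nitrogen and sulfur atoms of drugs, ranged from -0.63 to 0.35 with a median of -0.16 and was negative on 17 of 24 arrays. Its common term was -0.12 ± 0.04 (adjusted p = 0.0117). The 2 spots of FMO4 did not share this sign, as described with the spots of the same gene.

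The alcohol dehydrogenases held the most negative value of all 58 genes. ADH6 ranged from -2.61 to 1.03 with a median of -0.83, was negative on 20 of 24 arrays and had a common term of -0.76 ± 0.17 (adjusted p = 0.00183), or 1.69-fold. ADH4, which in mammals oxidises retinol and longer alcohols, ranged only from -0.63 to 0.06 with a median of -0.17 and was negative on 22 arrays. Its common term was -0.20 ± 0.04 (adjusted p = 3.9e-04), smaller than that of ADH6 and with a narrower spread between arrays. ADH4 is, however, the mean of 3 spots, whereas ADH6 had 1 spot. Fitted on their own in limma, the spots of ADH4 had -0.32, -0.31 and 0.02 (adjusted p = 0.718 for the last). Their pairwise r ranged from -0.15 to 0.30. ADH1C, of the classical ethanol-oxidising class, had -0.04 ± 0.10, with ratios from -0.82 to 1.43 that were negative on 13 arrays and positive on 11.

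Aldehyde dehydrogenases went in both directions, with 4 negative, 3 positive and 4 that did not pass (family median -0.08). Of all features 13.5% were negative and 24.2% positive. ALDH9A1, which acts in carnitine synthesis, was negative on 23 of 24 arrays, with a range from -0.94 to 0.14, a median of -0.27 and a common term of -0.31 ± 0.05 (adjusted p = 2.6e-04). ALDH8A1, of the kynurenine pathway, ranged from -0.76 to 0.57 with a median of -0.34 and had -0.29 ± 0.06 (negative on 21, adjusted p = 5.2e-04). ALDH3A2, the fatty aldehyde dehydrogenase, had -0.20 ± 0.04 (adjusted p = 0.00184), and ALDH3B2 had -0.09 ± 0.03 (adjusted p = 0.0182). On the positive side, ALDH3B1, which oxidises lipid-derived aldehydes, ranged from -0.09 to 0.75 with a median of 0.28 and had 0.25 ± 0.05 (positive on 20, adjusted p = 4.2e-04). ALDH6A1, of valine breakdown, was positive on 23 of 24 arrays with 0.19 ± 0.05 (adjusted p = 0.00559), and ALDH1A3, a retinaldehyde dehydrogenase, had 0.12 ± 0.04 (adjusted p = 0.0119). ALDH3B1 and ALDH3B2, which carry neighbouring names, thus had opposite signs. The mitochondrial ALDH2, which oxidises acetaldehyde, had -0.08 ± 0.04 (adjusted p = 0.130), ALDH4A1 of proline breakdown -0.08 ± 0.04, ALDH18A1 of proline synthesis -0.02 ± 0.03 and ALDH7A1 of lysine breakdown 0.05 ± 0.07.

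Of the 6 aldo-keto reductases limma called 0 (37.6% of all features), with 0 at an unadjusted p under 0.05 (47.0%). The family median was 0.04. The averages of AKR1B1 and of AKR1B10 each join 2 spots called with opposite signs, as described with the spots of the same gene. Of AKR1A1, 1 spot was called on its own at 0.09. AKR1E2 had the smallest p, 0.09 ± 0.04 (adjusted p = 0.110), and was positive on 17 of 24 arrays. AKR1D1, the steroid 5-beta-reductase of bile acid synthesis, had 0.11 ± 0.06, AKR7A2, which reduces aldehydes of aflatoxin and of succinate, 0.04 ± 0.03, AKR1A1, the aldehyde reductase, 0.04 ± 0.03, AKR1B10 -0.04 ± 0.06, and AKR1B1, the aldose reductase, -0.06 ± 0.04.

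The epoxide hydrolases split by gene. EPHX2, the soluble enzyme that turns epoxy fatty acids into diols, ranged from -0.30 to 0.83 with a median of 0.19, was positive on 20 of 24 arrays and had a common term of 0.22 ± 0.04 (adjusted p = 3.7e-04). EPHX1, the microsomal enzyme that opens epoxides of foreign compounds, ranged from -0.30 to 0.23 with a median of -0.09 and had -0.08 ± 0.03 (adjusted p = 0.0413). The 2 spots of EPHX1 both had -0.08, and 1 of them was called on its own. Across arrays these spots had r = -0.33. EPHX1L, annotated as EPHX1-like, ranged from -1.16 to 0.59 with a median of -0.28 and had -0.21 ± 0.08 (adjusted p = 0.0438). The calls of EPHX1 and EPHX1L were lost in 17 and 18 of 36 alternatives, with adjusted p up to 0.306 and 0.0839, and mostly when 1 array was left out.

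In the conjugating families, 4 of 6 glutathione S-transferases were negative and 1 was positive (family median -0.21), against 13.5% and 24.2% of all features. GSTA2 and GSTA3 belong to the alpha class, which conjugates lipid peroxidation products and drugs. GSTA2 ranged from -1.48 to 0.55 with a median of -0.48, was negative on 22 of 24 arrays and had -0.51 ± 0.09 (adjusted p = 5.2e-04). GSTA3 ranged from -1.54 to 0.52 with a median of -0.55, was negative on 18 arrays and had -0.52 ± 0.11 (adjusted p = 0.00116). GSTK1, of mitochondria and peroxisomes, had -0.22 ± 0.07 (adjusted p = 0.0198), and GSTT1, of the theta class, had -0.19 ± 0.06 (adjusted p = 0.0152). GSTT1L, annotated as GSTT1-like, had the opposite sign to GSTT1, with ratios from -0.30 to 0.91, a median of 0.24 and 0.25 ± 0.05 (positive on 20 arrays, adjusted p = 8.5e-04). GSTO2 of the omega class had -0.06 ± 0.04 (adjusted p = 0.202).

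Among sulfotransferases, SULT6B1L and SULT1C3 were negative (13.5% of all features were) and the other 4 did not pass (family median -0.15). SULT6B1L ranged from -1.43 to 0.33 with a median of -0.74, was negative on 22 of 24 arrays and had -0.64 ± 0.09 (adjusted p = 3.7e-05), the smallest adjusted p of the 58 genes. SULT1C3 ranged from -1.64 to 0.84 with a median of -0.60, was negative on 21 arrays and had -0.57 ± 0.12 (adjusted p = 0.00141). The gene annotated only as SULT had -0.24 ± 0.20 (adjusted p = 0.346) and the largest SE of the 58 genes, with ratios from -1.72 to 1.40. SULT1B1, which sulfates thyroid hormones in mammals, had 0.02 ± 0.04, SULT1E1, the estrogen sulfotransferase, -0.06 ± 0.04, and SULT4A1 0.00 ± 0.02.

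The 2 UDP-glycosyltransferases had opposite signs. UGT2A1, which attaches glucuronic acid, ranged from -1.05 to 0.49 with a median of -0.35 and had -0.27 ± 0.07 (negative on 19 of 24 arrays, adjusted p = 0.00718). UGT8, which makes galactosylceramide and does not belong to drug conjugation, ranged from -0.24 to 1.11 with a median of 0.23 and had 0.24 ± 0.06 (positive on 20, adjusted p = 0.00316).

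Genes that supply or accompany these enzymes were read in the same fit. Of all features 13.5% were called negative and 24.2% positive in the common term. Of 19 measured genes of cofactors and thiol metabolism, 6 were negative and 1 positive (median -0.05), among them HPGDS, a glutathione transferase of the sigma class, at -0.64 ± 0.08, GPX3, a secreted glutathione peroxidase, at -0.25 ± 0.05, and PRDX1, a peroxiredoxin, at 0.24 ± 0.05. The P450 reductase POR had 0.01 ± 0.04 and did not pass (adjusted p = 0.871). Of 8 transporters of drugs and bile salts, 3 were negative and 0 positive (median 0.0002). They were SLCO1A2, an organic anion importer, at -0.65 ± 0.11, SLC51A, a subunit of the bile acid exporter OST, at -0.32 ± 0.06, and ABCC2, which exports conjugates to bile, at -0.21 ± 0.07. Of 14 other oxidoreductases and hydrolases, 3 were negative and 2 positive (median 0.03), with XDH, the xanthine dehydrogenase of urate formation, at -0.29 ± 0.07, DHRS7 at -0.21 ± 0.04 and HSD3B1 of steroid synthesis at 0.20 ± 0.04. Of 11 regulators, 1 was negative and 2 positive (median 0.00), with HNF4A, a hepatocyte transcription factor, at -0.13 ± 0.05, the coactivator PPARGC1A at 0.15 ± 0.05 and the chaperone HSP90AA1 at 0.23 ± 0.04. Of 6 genes of conjugation donors and other transferases, TPMT, a thiol methyltransferase, was positive at 0.09 ± 0.03 and the other 5 did not pass (median -0.07).

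Markers of liver cell types were read in the same term, where 13.5% of all features were called negative and 24.2% positive. Of 18 measured hepatocyte markers, 10 were negative, 2 positive and 6 did not pass (median -0.24). Negative ones included APOH at -0.73 ± 0.11, APOB at -0.66 ± 0.16 and VTN at -0.60 ± 0.11, the positive ones were PCK1 at 0.39 ± 0.13 and RBP4 at 0.24 ± 0.09, and ALB did not pass at -0.23 ± 0.09 (adjusted p = 0.0557). Of 20 stellate cell and matrix markers, 1 was negative, 10 were positive and 9 did not pass (median 0.06). MMP2 had 0.67 ± 0.11, LAMB1 0.61 ± 0.06 and SPARC 0.46 ± 0.07, while DCN was negative at -0.14 ± 0.06 and COL3A1 did not pass at -0.12 ± 0.07. With 1 wk replicate 4 turned, 12 hepatocyte markers were negative and 2 positive, and 3 matrix markers were negative and 9 positive. Of all features 13.2% were then negative and 24.7% positive. The mean of the hepatocyte markers on single arrays ranged from -0.39 to 0.39 at 1 wk, from -0.85 to -0.32 at 3 wk, from -0.30 to -0.06 at 5 wk, from -0.53 to 0.05 at 7 wk, from -0.44 to -0.18 at 9 wk and from -0.51 to -0.33 at 11 wk. Of 10 endothelial markers 0 were negative and 4 positive, of 11 macrophage markers 4 negative and 2 positive, of 4 erythrocyte markers 0 and 3, of 6 adipocyte markers 0 and 2, of 3 bile duct markers 0 and 2, and of 3 pancreas markers 0 and 1. Their part in the values of the enzyme genes was not tested.

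Several spots were measured for 26 of the 58 genes, and spots of the same gene often differed. Across the 24 arrays the lowest pairwise r between spots of a gene had a median of 0.14 over these 26 genes, against 0.10 over 2772 genes with several spots. With each spot fitted on its own, 47 of 90 enzyme spots passed (38.2% of all 18963 spots), 35 negative (14.3% of all spots) and 12 positive (23.9%). With 1 wk replicate 4 turned 48 enzyme spots passed, 35 negative and 13 positive. In 15 of the 26 genes the spots had common terms of both signs. For 4 genes of the AKR, FMO and SULT families 1 spot was called on each side, so that their average is not a value of either spot. They were AKR1B1 with -0.43 and 0.31 (r = -0.50), AKR1B10 with -0.32 and 0.23 (r = -0.11), FMO4 with -0.33 and 0.08 (r = -0.04) and SULT1E1 with -0.33 and 0.20 (r = -0.13). The 2 spots of ALDH2 also ran in opposite directions across arrays, with -0.28 and 0.12 (r = -0.54). By contrast, all spots were called with 1 sign for GSTA2 (-0.51 and -0.50, r = 0.77), CYP20A1 (-0.42 and -0.33, r = 0.75), GSTT1 (-0.27 and -0.12, r = 0.60), ALDH9A1 (-0.42 and -0.20, r = -0.10) and ALDH6A1 (0.17 and 0.20, r = 0.18). The 2 spots of GSTK1 had the highest agreement, r = 0.82. On cDNA spots related family members can share signal, and which member each spot measured was not tested. The 2 spots of SULT4A1 are annotated with the same sequence entry, yet had -0.05 and 0.05 (r = 0.01), and neither passed. Why spots of a gene differed was not tested.

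**Figure D2:**
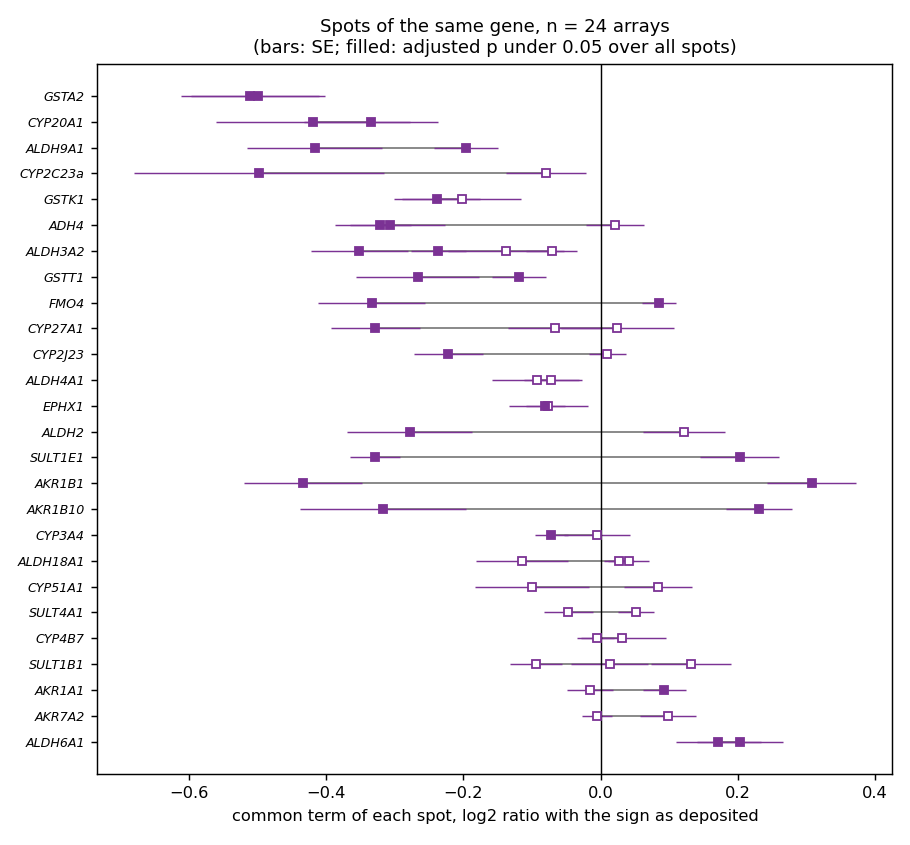
Common term of each spot of the 26 enzyme genes with several measured spots, as log2 ratio with the sign as deposited (squares, with the SE as line, n = 24 arrays), filled where the adjusted p over all spots was under 0.05. The squares of GSTA2 and CYP20A1 lie together, whereas those of AKR1B1, AKR1B10, FMO4 and SULT1E1 lie on both sides of 0.

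Next, the columns as deposited were taken at each age, to ask at which ages the ratios lay away from 0. At 1 and 5 wk, limma called 0 enzyme genes (0.114% and 0.0539% of all features were called), with 5 enzyme genes at an unadjusted p under 0.05 at each of these ages (9.29% and 9.43% of all features). At 3 wk 9 enzyme genes passed (6.43% of all features), 7 negative and 2 positive. At 7 wk 11 passed (23.8%), 6 negative and 5 positive, at 9 wk 16 (16.2%), 13 negative and 3 positive, and at 11 wk 14 (10.5%), 12 negative and 2 positive. The negative share exceeded that of all features at the last 3 ages and at 3 wk, with 12.1% against 2.56% at 3 wk, 10.3% against 1.75% at 7 wk, 22.4% against 7.92% at 9 wk and 20.7% against 5.20% at 11 wk. The positive share was 3.45% against 3.87% at 3 wk, 8.62% against 22.0% at 7 wk, 5.17% against 8.29% at 9 wk and 3.45% against 5.28% at 11 wk. At 7 wk, where 1 array was not centred, 260 features were negative and 3273 positive, and with arrays centred these counts were 875 and 1371, with 7 enzyme genes negative and 2 positive. These counts depended on single arrays. The shares of all features are not given for the fits that follow. Whether enzyme genes moved more than other features cannot be read from them. At 3 wk 5 enzyme genes passed without replicate 2, 1 without replicate 3, 1 without replicate 4 and 18 without 7 wk replicate 1. At 7 wk 6 passed without replicate 2. At 9 wk 9 passed without replicate 1, 6 without replicate 2, 10 without replicate 3 and 9 without replicate 4, and at 11 wk 7 passed without replicate 1, 9 without replicate 2 and 6 without replicate 3. The 4 ratios of an age had 1 sign for 13.8% of enzyme genes at 1 wk, where this held for 25.1% of all features, and for 55.2% against 41.0% at 3 wk. The same shares were 31.0% against 30.5% at 5 wk, 22.4% against 25.8% at 7 wk, 46.6% against 33.3% at 9 wk and 46.6% against 32.0% at 11 wk. The SD of all features on single arrays lay between 0.17 and 0.30 at 1 wk, 0.19 and 0.36 at 3 wk, 0.17 and 0.19 at 5 wk, 0.24 and 0.34 at 7 wk, 0.30 and 0.32 at 9 wk, and 0.26 and 0.32 at 11 wk.

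**Figure D3:**
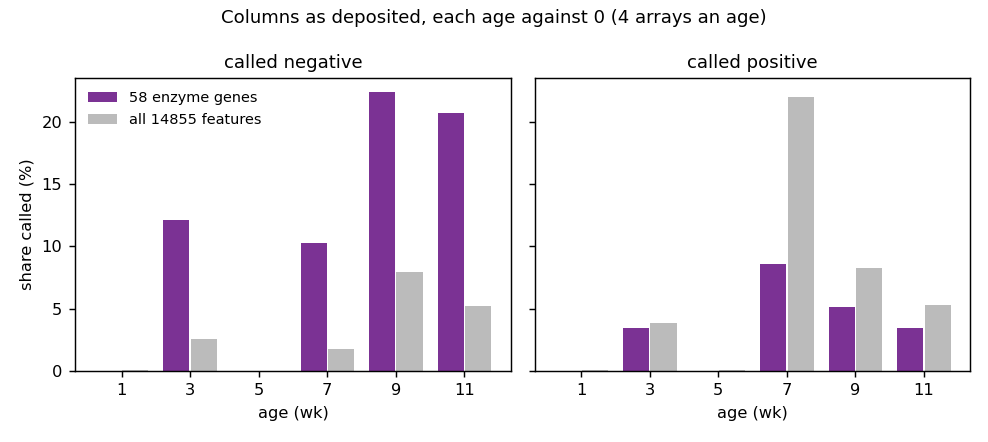
Share of the 58 enzyme genes (purple) and of all 14855 features (grey) called negative (left) and positive (right) at each age in wk, from the columns as deposited with 4 arrays per age. Enzyme genes were called negative more often than all features at 3, 7, 9 and 11 wk, up to 22.4% against 7.92% at 9 wk, while at 7 wk all features were called positive more often (22.0%).

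GSTA2 and SULT6B1L were called at 3, 7, 9 and 11 wk, and CYP2AC1 and SULT1C3 at 7, 9 and 11 wk. In the order of replicates 1 to 4, GSTA2 had -0.47, -0.43, -0.01 and 0.55 at 1 wk, -0.24, -0.46, -0.83 and -0.74 at 3 wk and 0.08, -0.41, -0.06 and -0.17 at 5 wk. It had -0.06, -0.53, -1.04 and -0.32 at 7 wk, -1.48, -0.86, -0.72 and -0.99 at 9 wk and -0.97, -0.72, -0.49 and -0.78 at 11 wk. From 7 wk on all 12 ratios of GSTA2 were below 0, and the age mean was -1.01 ± 0.15 at 9 wk (adjusted p = 1.1e-04). For SULT6B1L the replicates had -0.39, -1.17, 0.33 and -0.0007 at 1 wk, -0.35, -0.75, -1.23 and -0.58 at 3 wk and -0.06, -0.78, 0.17 and -0.76 at 5 wk. They had -0.57, -0.45, -0.67 and -0.73 at 7 wk, -1.16, -0.94, -1.43 and -1.21 at 9 wk and -0.15, -0.9956, -0.77 and -0.81 at 11 wk. The ratios at 3, 7, 9 and 11 wk were all negative, and the mean of 9 wk was -1.19 ± 0.19 (adjusted p = 1.5e-04).

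SULT1C3 had -0.22, -0.59, 0.84 and 0.54 at 1 wk, -0.04, -0.56, -0.68 and -0.66 at 3 wk and 0.03, -0.41, -0.17 and -0.61 at 5 wk. Its later ratios were -0.77, -0.32, -0.53 and -0.62 at 7 wk, -1.64, -1.41, -0.89 and -1.32 at 9 wk and -1.09, -0.40, -1.07 and -1.07 at 11 wk. The ratios of 9 wk lay wholly below those of 1, 3, 5 and 7 wk, with an age mean of -1.31 ± 0.17 (adjusted p = 3.0e-05), while 11 wk replicate 2 overlapped with 1, 3, 5 and 7 wk. CYP2AC1 had -0.26, -0.49, 0.52 and 1.04 at 1 wk, -0.50, -0.86, -0.51 and -0.61 at 3 wk and -0.44, -0.63, 0.33 and -0.44 at 5 wk. It had -0.54, -0.83, -2.25 and -0.80 at 7 wk, -0.53, -1.22, -0.87 and -1.73 at 9 wk and -1.59, -1.20, -0.79 and -1.30 at 11 wk. The mean of 11 wk was -1.22 ± 0.24 (adjusted p = 0.00198), and the ratios of 7 to 11 wk overlapped with those of 3 wk.

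**Figure D4:**
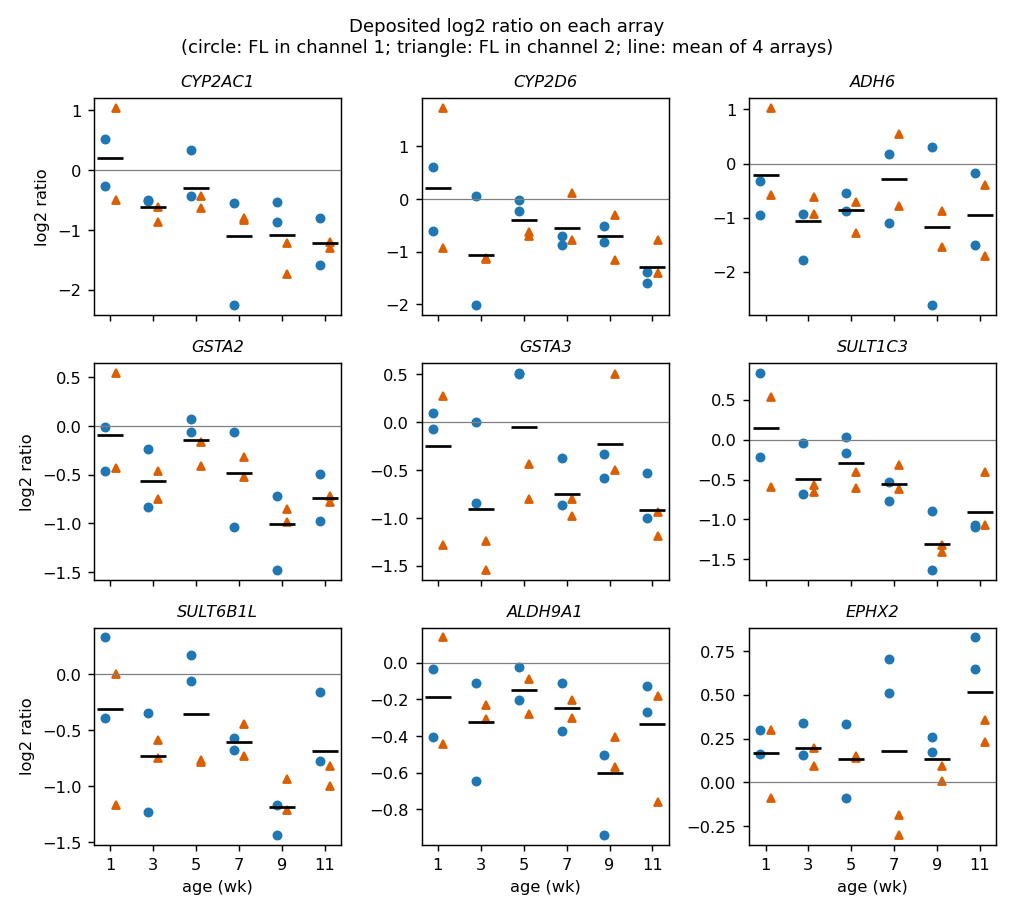
Deposited log2 ratio of 9 enzyme genes on each of the 24 arrays by age in wk, with circles for FL in channel 1, triangles for FL in channel 2 and lines at the mean of 4 arrays. Circles and triangles of an age mostly overlap below 0 from 7 wk on, as for SULT1C3 with a mean of -1.31 at 9 wk, and the 1 wk arrays lie on both sides of 0.

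ADH4 had -0.06, -0.13, -0.12 and -0.03 at 1 wk, -0.06, -0.16, -0.34 and -0.20 at 3 wk and -0.18, -0.13, -0.08 and -0.15 at 5 wk. It had -0.02, 0.04, -0.24 and 0.06 at 7 wk, -0.63, -0.33, -0.60 and -0.23 at 9 wk and -0.31, -0.27, -0.34 and -0.35 at 11 wk. The ratios of 9 and 11 wk lay below all ratios of 1, 5 and 7 wk except 7 wk replicate 3, with means of -0.45 ± 0.06 (adjusted p = 2.8e-05) and -0.32 ± 0.06 (adjusted p = 0.00124). ADH6 had -0.95, -0.58, -0.33 and 1.03 at 1 wk, -1.79, -0.61, -0.93 and -0.92 at 3 wk and -0.55, -0.70, -0.88 and -1.28 at 5 wk. It had 0.18, -0.78, -1.09 and 0.56 at 7 wk, -2.61, -1.54, 0.31 and -0.87 at 9 wk and -1.50, -1.71, -0.17 and -0.40 at 11 wk. Replicates of ADH6 spread widely, and only the mean of 9 wk was called, -1.18 ± 0.36 (adjusted p = 0.0297). With the 4 arrays of 5 wk fitted alone, ADH6 was called there too, at -0.85 ± 0.11 (adjusted p = 0.0265).

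GSTA3 had -0.07, -1.29, 0.10 and 0.28 at 1 wk, -0.84, -1.24, 0.01 and -1.54 at 3 wk and 0.52, -0.80, 0.51 and -0.44 at 5 wk. It had -0.86, -0.98, -0.37 and -0.80 at 7 wk, -0.33, 0.51, -0.58 and -0.50 at 9 wk and -0.53, -1.19, -0.9999 and -0.93 at 11 wk. It was called at 3 wk (-0.90 ± 0.25, adjusted p = 0.0360), 7 wk (-0.75 ± 0.25, adjusted p = 0.0341) and 11 wk (-0.91 ± 0.25, adjusted p = 0.0213), and at 5 wk the 2 dye orientations did not overlap. CYP2D6 had -0.60, -0.93, 0.60 and 1.73 at 1 wk, 0.05, -1.14, -2.01 and -1.12 at 3 wk and -0.23, -0.63, -0.03 and -0.70 at 5 wk. It had -0.87, -0.77, -0.69 and 0.11 at 7 wk, -0.82, -1.15, -0.52 and -0.31 at 9 wk and -1.59, -0.78, -1.38 and -1.39 at 11 wk. It was called at 3 wk (-1.06 ± 0.31, adjusted p = 0.0447) and 11 wk (-1.29 ± 0.31, adjusted p = 0.00869), and its 1 wk ratios covered a range wider than those of any later age. CYP20A1 had -0.18, -0.54, 0.45 and 1.05 at 1 wk, -0.01, -0.51, -1.19 and -0.62 at 3 wk and 0.21, -0.53, 0.15 and -0.29 at 5 wk. It had 0.45, -0.48, -0.65 and -0.33 at 7 wk, -0.88, -0.90, -0.69 and -0.42 at 9 wk and -1.12, -0.78, -1.19 and -0.05 at 11 wk. It was called at 9 wk (-0.72 ± 0.22) and 11 wk (-0.79 ± 0.22), where all 8 ratios were negative.

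ALDH9A1 had -0.41, -0.44, -0.03 and 0.14 at 1 wk, -0.11, -0.23, -0.64 and -0.31 at 3 wk and -0.02, -0.09, -0.20 and -0.28 at 5 wk. It had -0.37, -0.20, -0.11 and -0.30 at 7 wk, -0.94, -0.57, -0.50 and -0.40 at 9 wk and -0.27, -0.18, -0.13 and -0.76 at 11 wk. The mean of 9 wk, -0.60 ± 0.11, had an adjusted p of 4.4e-04, and the only positive ratio was that of 1 wk replicate 4. ALDH8A1 had -0.53, -0.34, -0.21 and 0.13 at 1 wk, -0.47, -0.52, -0.76 and -0.58 at 3 wk and 0.20, -0.31, -0.18 and -0.36 at 5 wk. It had 0.57, -0.51, -0.35 and -0.14 at 7 wk, -0.19, -0.35, -0.28 and -0.33 at 9 wk and -0.35, -0.32, -0.53 and -0.39 at 11 wk. It was called at 3 wk (-0.58 ± 0.12) and 11 wk (-0.40 ± 0.12), and its highest ratio was that of the uncentred 7 wk replicate 1. ALDH3B1 had 0.30, 0.31, -0.09 and -0.03 at 1 wk, 0.22, 0.40, 0.72 and 0.32 at 3 wk and 0.0017, 0.16, -0.05 and 0.11 at 5 wk. It had 0.20, 0.35, 0.75 and 0.32 at 7 wk, 0.26, 0.39, 0.03 and 0.44 at 9 wk and 0.40, -0.05, 0.32 and 0.18 at 11 wk. It was positive and called at 3 wk (0.41 ± 0.09), 7 wk (0.40 ± 0.09) and 9 wk (0.28 ± 0.09), and all 12 ratios of these ages were above 0.

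EPHX2 had 0.30, 0.30, 0.16 and -0.09 at 1 wk, 0.15, 0.20, 0.34 and 0.09 at 3 wk and 0.33, 0.15, -0.09 and 0.14 at 5 wk. It had 0.51, -0.30, 0.70 and -0.19 at 7 wk, 0.17, 0.09, 0.26 and 0.01 at 9 wk and 0.83, 0.35, 0.65 and 0.23 at 11 wk. All ratios of 3, 9 and 11 wk were positive, and the mean of 11 wk was called (0.52 ± 0.12, adjusted p = 0.00795), whereas at 7 wk the 2 dye orientations lay on opposite sides of 0. EPHX1 had -0.01, -0.05, 0.09 and 0.23 at 1 wk, -0.10, 0.03, -0.30 and -0.24 at 3 wk and -0.16, -0.09, -0.07 and -0.06 at 5 wk. It had 0.14, -0.04, -0.19 and -0.02 at 7 wk, -0.15, 0.09, -0.11 and -0.16 at 9 wk and -0.17, -0.15, -0.15 and -0.22 at 11 wk. EPHX1 was not called at any single age. EPHX1L had -0.07, -0.26, 0.54 and 0.59 at 1 wk, -0.20, -0.41, -0.70 and -0.56 at 3 wk and 0.17, -0.50, 0.23 and -0.46 at 5 wk. It had 0.04, -0.67, -0.52 and -0.31 at 7 wk, -0.07, 0.43, -1.16 and -0.41 at 9 wk and -0.05, -0.63, 0.19 and -0.30 at 11 wk. EPHX1L was not called at any single age either, and its ratios spread from -1.16 to 0.43 at 9 wk alone.

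GSTT1L had 0.35, 0.18, 0.17 and -0.02 at 1 wk, 0.20, 0.29, 0.55 and 0.41 at 3 wk and 0.19, 0.17, 0.32 and -0.0016 at 5 wk. It had 0.91, -0.13, -0.30 and 0.12 at 7 wk, 0.39, 0.44, 0.19 and 0.30 at 9 wk and 0.27, 0.31, 0.21 and 0.41 at 11 wk. All ratios of 3, 9 and 11 wk were above 0, although no single age was called. UGT2A1 had -0.0045, -0.03, 0.17 and 0.30 at 1 wk, -0.73, -0.18, -0.51 and -0.54 at 3 wk and 0.21, -0.46, 0.34 and -0.10 at 5 wk. It had 0.49, -0.38, -0.31 and -0.64 at 7 wk, -0.06, -0.46, -0.57 and -0.64 at 9 wk and -0.60, -0.52, -1.05 and -0.16 at 11 wk. Only 11 wk was called, at -0.58 ± 0.15, and 3 and 9 wk also had 4 negative ratios. UGT8 had -0.02, 0.32, -0.12 and -0.24 at 1 wk, 0.09, 0.17, 0.35 and 0.09 at 3 wk and 0.09, 0.14, -0.14 and 0.06 at 5 wk. It had 1.11, 0.39, 0.48 and 0.22 at 7 wk, 0.05, 0.32, 0.45 and 0.24 at 9 wk and 0.46, 0.32, 0.60 and 0.29 at 11 wk. It was called at 7 wk (0.55 ± 0.10, adjusted p = 0.00151), where the uncentred array gave the highest ratio, and at 11 wk (0.42 ± 0.10, adjusted p = 0.0112). FMO4 had -0.18, -0.16, 0.02 and -0.11 at 1 wk, 0.03, -0.06, 0.24 and -0.27 at 3 wk and -0.16, -0.07, 0.21 and -0.23 at 5 wk. It had -0.21, -0.28, -0.37 and 0.14 at 7 wk, -0.63, -0.26, -0.24 and -0.02 at 9 wk and 0.35, -0.41, 0.19 and -0.50 at 11 wk. No age was called for FMO4 as deposited, and at 11 wk the 2 dye orientations lay on opposite sides of 0.

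The remaining calls at single ages were of single genes. At 3 wk they were ALDH1A3 (0.33 ± 0.06), CYP39A1 (-0.38 ± 0.10) and GSTT1 (-0.49 ± 0.11). At 7 wk they were AKR7A2 (0.16 ± 0.06), ALDH6A1 (0.31 ± 0.10), CYP51A1 (0.32 ± 0.11) and CYP2C18 (-0.88 ± 0.29). These means include the uncentred 7 wk replicate 1, where ALDH6A1 had 0.97, against 0.26, -0.15 and 0.15 on replicates 2 to 4. With arrays centred, the positive enzyme genes of 7 wk fell from 5 to 2. The 2 spots of CYP51A1 had common terms of -0.10 and 0.08, neither of them called. At 9 wk GSTK1 (-0.60 ± 0.17), GSTT1 (-0.33 ± 0.11), ALDH6A1 (0.33 ± 0.10), ALDH2 (-0.24 ± 0.08), CYP27A1 (-0.34 ± 0.12), CYP2J23 (-0.23 ± 0.07) and CYP2W1 (0.31 ± 0.10) were called. At 11 wk it was CYP3A5 (-0.76 ± 0.17), and ADH4, ALDH9A1, SULT1C3 and others described above were called there too.

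To ask whether the ratios changed with age, the 6 age means of the columns as deposited were compared by a moderated F test in limma. Of 58 enzyme genes 4 passed (6.90%), against 5.69% of all features, so the share was near the background. They were SULT1C3 (adjusted p = 0.0102), ADH4 (0.0226), CYP2AC1 (0.0471) and GSTA2 (0.0488). The means of SULT1C3 went from 0.14 at 1 wk to -1.31 at 9 wk, and those of CYP2AC1 from 0.20 at 1 wk to -1.22 at 11 wk. Those of GSTA2 went from -0.09 at 1 wk to -1.01 at 9 wk, and those of ADH4 from -0.04 at 7 wk to -0.45 at 9 wk. Both arrays of 1 wk that ran against the others enter these differences. Without the 4 arrays that stand apart, and likewise without all arrays of 1 wk, SULT1C3 was the 1 enzyme gene that passed (adjusted p = 0.0210 and 0.0193). When each array was left out in turn, SULT1C3 kept its call, ADH4 lost it in 2 of 24 cases (without 9 wk replicate 1 and without 9 wk replicate 3, adjusted p = 0.0536 and 0.0607), CYP2AC1 in 19 and GSTA2 in 18. CYP2AC1 kept its call without 1 wk replicate 2, 7 wk replicates 1, 3 or 4 and 9 wk replicate 1, and GSTA2 without 1 wk replicates 1 or 2, 3 wk replicate 1 and 7 wk replicates 1, 3 or 4. With arrays centred on their medians the call of ADH4 was lost (adjusted p = 0.0738). With 1 wk replicate 4 turned 2 enzyme genes passed, as CYP2AC1 (adjusted p = 0.225) and GSTA2 (0.0707) lost the call, and with the replicate number as a block 2 passed, whereas with array weights 9 did.

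The turned ratios, in which the dye labels decide the sign, gave few calls. Averaged over ages, limma called 0 of 58 enzyme genes and 0 of 14855 features (0%), and 7 enzyme genes and 496 features (3.34%) had an unadjusted p under 0.05. The smallest p belonged to EPHX2 (-0.14 ± 0.04, adjusted p = 1.00), CYP2C18 (-0.28 ± 0.11) and CYP17A1 (-0.06 ± 0.02). All 7 were negative, and none had the same sign on more than 16 of 24 arrays. Family medians ranged from -0.08 for epoxide hydrolases to 0.04 for alcohol dehydrogenases, and the median 95% confidence interval of an enzyme gene was ± 0.10 log2 units. None of the pathway or marker lists held a called gene in this mean. At 7 wk, where 1.10% of all features were called, 1 of 19 genes of cofactors and thiol metabolism was called. It was GSR, at -0.27 ± 0.05 (limma adjusted p = 0.0257).

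At 7 wk the turned ratio of EPHX2 was called. Its 4 turned ratios, in the order of replicates, were -0.51, -0.30, -0.70 and -0.19, all negative, with a mean of -0.43 ± 0.10 (adjusted p = 0.0394, 1 of 58 enzyme genes against 1.10% of all features). Of all features 163 were called at 7 wk, and all were negative. Turning reverses the sign of the uncentred 7 wk replicate 1 (median 0.33 as deposited), which enters the 7 wk means. Over all features these turned means had a median of -0.08, or -0.01 once each array was centred. With arrays centred on their medians EPHX2 had -0.35 (adjusted p = 0.194), and without both look-alike arrays, which leaves out the uncentred one, -0.47 (adjusted p = 0.142). Leaving out each array in turn, the call was lost in 10 of 24 cases (adjusted p from 0.0285 to 0.121), namely without 1 wk replicates 1 or 2, 3 wk replicates 1, 2 or 4, 5 wk replicates 1 or 2 and 7 wk replicates 1, 2 or 4, while without 7 wk replicate 3 the calls were 6 enzyme genes and 10.1% of all features. CYP3A4 had -0.24 ± 0.07 (adjusted p = 0.0853) and ALDH4A1 -0.30 ± 0.11 (adjusted p = 0.147) at this age. With 1 spot per gene in place of the mean, EPHX2 (-0.43), CYP3A4 (-0.25, adjusted p = 0.0433) and SULT1E1 (-0.40, adjusted p = 0.0410) were called at 7 wk. CYP3A4 and SULT1E1 have 2 spots each, so these calls rest on the spot that was kept. The spots of SULT1E1 had common terms of -0.33 and 0.20.

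**Figure D5:**
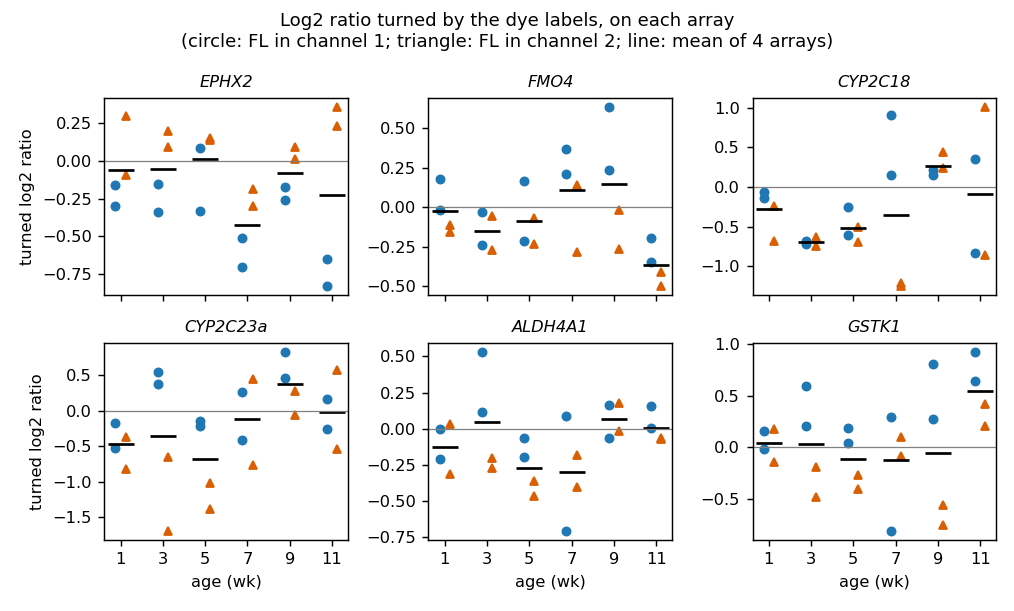
Turned log2 ratio of 6 enzyme genes on each of the 24 arrays by age in wk, with circles for FL in channel 1, triangles for FL in channel 2 and lines at the mean of 4 arrays. All 4 values lie below 0 for EPHX2 at 7 wk (mean -0.43) and for FMO4 at 3 wk and 11 wk (mean -0.36 at 11 wk). All lie above 0 for GSTK1 at 11 wk (mean 0.55). Circles and triangles lie on opposite sides for EPHX2 at 3, 9 and 11 wk, whereas those of FMO4 mix at 1, 5 and 7 wk. FMO4 is the mean of 2 spots with common terms called with opposite signs.

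At the other ages limma called 0 enzyme genes (0% of all features at 1, 3, 5 and 11 wk and 0.00673% at 9 wk), with 0 enzyme genes at an unadjusted p under 0.05 at 1 wk (0.464% of all features), 1 in 3 wk livers (0.828%) and 4 in 5 wk livers (1.17%), followed by 1 at 9 wk (3.25%) and 4 in the oldest birds of 11 wk (3.04%). The smallest p of these ages was that of FMO4 at 11 wk, with turned ratios of -0.35, -0.41, -0.19 and -0.50 and a mean of -0.36 ± 0.09 (adjusted p = 1.00). GSTK1 at 11 wk had 0.92, 0.41, 0.64 and 0.20, with a mean of 0.55 ± 0.17, and CYP3A5 had -0.42 ± 0.16. The adjusted p was 1.00 for each gene named in this paragraph in the fit over all ages. Among 1 wk ratios, those of smallest p came from CYP2C23a (-0.48 ± 0.24), AKR1B10 (0.22 ± 0.15) and GSTO2 (-0.12 ± 0.09). At 3 wk CYP2C18 had -0.68, -0.64, -0.72 and -0.74, 4 nearly equal ratios with a mean of -0.69 ± 0.27, followed by GSTA3 (-0.49 ± 0.26) and AKR1B1 (-0.16 ± 0.09). At 9 wk they were CYP17A1 (-0.17 ± 0.06), ADH4 (0.17 ± 0.09) and FMO4 (0.15 ± 0.09). FMO4, AKR1B1 and AKR1B10 are each the mean of 2 spots with common terms called with opposite signs. Their turned ratios are therefore not those of either spot. The median interval of an enzyme gene at a single age was ± 0.25 log2 units in the fit over all ages.

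At 5 wk the result depended on the fit. CYP2C23a had turned ratios of -0.22, -1.01, -0.14 and -1.38, with a mean of -0.69 ± 0.24 (adjusted p = 1.00), ALDH4A1 had -0.19, -0.36, -0.06 and -0.46 with -0.27 ± 0.11, and AKR1B1 had -0.20 ± 0.09. These SE come from the spread over all 6 ages. The 4 arrays of 5 wk were also fitted alone, with a common term of their own. A gap between the dye orientations then goes into that term. The SE come from the spread within each orientation at 5 wk and rest on few arrays. In this fit 6 enzyme genes passed, all negative (0.761% of all features were called negative). They were CYP2C23a (-0.69 ± 0.06, adjusted p = 0.00750), GSTA3 (-0.57 ± 0.06, 0.0139), EPHX1L (-0.34 ± 0.04, 0.0173), SULT6B1L (-0.41 ± 0.05, 0.0179), CYP2C18 (-0.51 ± 0.07, 0.0230) and ALDH4A1 (-0.27 ± 0.04, 0.0494). The 4 turned ratios were -0.52, -0.80, -0.51 and -0.44 for GSTA3, -0.17, -0.50, -0.23 and -0.46 for EPHX1L, -0.61, -0.51, -0.25 and -0.70 for CYP2C18 and 0.06, -0.78, -0.17 and -0.76 for SULT6B1L. All were negative except 1 for SULT6B1L, and 8 enzyme genes (13.8%) had 4 turned ratios of 1 sign at 5 wk, as did 13.8% of all features.

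Turned ratios were also compared between ages. The interaction of the turned ratio with age gave 0 enzyme genes (0% of all features), with 3 at an unadjusted p under 0.05 (3.96% of all features), namely FMO4, CYP3A5 and EPHX2. The linear trend gave 0 enzyme genes (0%), with 1 at an unadjusted p under 0.05 (1.58%), and CYP2C23a had 0.72 ± 0.29 over the 10 wk (adjusted p = 1.00), AKR1B1 0.21 ± 0.11 and CYP2C18 0.58 ± 0.32. FMO4 had a mean of 0.15 at 9 wk and -0.36 at 11 wk, and CYP3A5 had 0.40 at 7 wk and -0.42 at 11 wk. The values of FMO4 and of AKR1B1 each join 2 spots with common terms called with opposite signs. When the columns were read as already turned, the trend over the 10 wk was called for 6 enzyme genes (5.53% of all features), -1.15 ± 0.21 for SULT1C3, -1.33 ± 0.29 for CYP2AC1, -0.70 ± 0.18 for GSTA2, -0.26 ± 0.07 for ADH4, 0.42 ± 0.12 for UGT8 and 0.31 ± 0.08 for SULT1B1. With 1 wk replicate 4 turned 3 passed (4.11% of all features), SULT1C3 at -0.95 ± 0.21, ADH4 at -0.27 ± 0.07 and CYP3A5 at -0.78 ± 0.20, and the calls of CYP2AC1 (adjusted p = 0.0592), GSTA2 (0.0823), UGT8 (0.148) and SULT1B1 (0.289) were lost.

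From array to array, an r beyond 0.6 in either direction was more frequent among pairs of enzyme genes than among pairs of all features. As deposited this share was 6.90% against 3.78% over 24 arrays, and 2.66% against 1.79% without the 4 arrays that stand apart. For turned ratios it was 15.5% against 6.68%, and 19.9% against 7.43% without those arrays. Turning changes signs array by array, so genes with a sizeable common term share an r through the turning alone. The median size of the common term was 0.12 over the enzyme genes and 0.06 over all features. The turned shares are thus not separate from the common term. After the fitted terms were removed, pairs of enzyme genes had a median r of 0.20 over 24 arrays, against 0.18 for 19998 sampled pairs of all features, and without the 4 arrays that stand apart 0.10 against 0.07. An r beyond 0.6 in either direction was nevertheless found for 11.5% of enzyme pairs and 5.81% of all pairs, and for 5.20% and 3.42% without those 4 arrays. The highest r was 0.89 for AKR1B10 and ALDH8A1 (0.85 without the 4 arrays), followed by 0.86 for ALDH9A1 and SULT1C3 (0.83). GSTA2 and SULT1C3 had 0.83 (0.80), and CYP20A1 and CYP2D6 had 0.82 (0.75). SULT1B1 ran against SULT1C3, with r = -0.80 (-0.75), and AKR1B1 against ALDH3B1, with r = -0.77 (-0.76). These pairs were picked for their r, they share the arrays, and pairs of the same family had a median of 0.15, no higher than that of all enzyme pairs. AKR1B10 and AKR1B1 are each the mean of 2 spots called with opposite signs, so their r is not that of either spot. SULT1B1 is the mean of 3 spots with a lowest pairwise r of 0.07, and ALDH9A1 of 2 spots with r = -0.10.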

How the data were processed

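Liver RNA of FL and LL chickens was measured on 24 two-colour cDNA arrays. The authors deposited 1 log ratio per spot and array, taken here as log2 values. They ran from -3.88 to 3.69, and 0 columns belonged to other samples. The log base, direction, image analysis, background correction and normalization are not given in the sources used here.

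Groups, ages and dyes came from the labels. Of 19200 spots, 10601 had a gene symbol from the platform annotation (8599 had none), and 57 of the 58 enzyme symbols equalled the RefSeq symbol of the same gene ID. Between 18795 and 18970 spots had a value on each array, and the files give no spot signal, so that precision rests on the number of arrays. Spots of a gene were averaged. Of 15027 features, 14855 were kept, those missing on no more than 1 of the 4 arrays of each age.

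Ratios were fitted in limma 3.58.1 (R 4.3.3) with a turned coefficient for each age and a common term. A second fit took the 6 age means of the columns as deposited. Tests were moderated by eBayes, two-sided, and p-values were adjusted by Benjamini-Hochberg over all 14855 features at a threshold of 0.05. The fits were tested on simulated data. Values on every array are given for ADH6, GSTA3, SULT1C3, EPHX2, FMO4 and up to 3 called genes per family with the largest common term, and estimates for every other called enzyme gene, for the 3 smallest p in each turned comparison and for up to 3 called genes of other lists. Members and gene lists were chosen with earlier results of these data known.

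Alternatives took the columns as already turned, centred or scaled arrays, used a replicate block, a common term per age, array weights, other filters or 1 spot per gene, turned the sign of 1 wk replicate 4, left out the look-alike pair or each array, centred blocks of 400 spots, and fitted each age alone. Fits without 4 arrays that stand apart, without 1 wk, and of each spot were added after the data were seen. Protein and promoter sequences were not used here.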

Additional observations from a re-analysis of the deposited data

Results flagged for a closer look

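Of 114 groups of 4 arrays examined for the enzyme genes described on single arrays, 2 held an array far from the other 3, where chance marks about 1 group in 20. SULT1C3 had -0.40 on 11 wk replicate 2, whereas the other arrays of 11 wk lay between -1.09 and -1.07. CYP2AC1 had -2.25 on 7 wk replicate 3, against -0.83 to -0.54 on the other arrays of 7 wk. Both are log2 ratios with the sign as deposited.

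For 4 enzyme genes (6.90%) the ratios as deposited differed between the 6 ages by a moderated F test in limma. The share of all features was 5.69%, so this count was near the background. The genes were SULT1C3 with an adjusted p of 0.0102, ADH4 with 0.0226, CYP2AC1 with 0.0471 and GSTA2 with 0.0488. Without 11 wk replicate 2 SULT1C3 kept its call (adjusted p = 0.00772) and CYP2AC1 lost it (0.0699). Without 7 wk replicate 3 both were called (0.0138 and 0.0242). Over the 24 fits that each left out 1 array, the call was lost in 0 for SULT1C3, 2 for ADH4, 18 for GSTA2 and 19 for CYP2AC1.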

How the results depend on the processing

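In the common term 26 to 39 enzyme genes were called over 36 alternatives (29 as reported, 26 to 36 with 1 array left out, lowest without 3 wk replicate 1 and highest without 7 wk replicate 1), and 26 of the 29 were kept in each of them. The call was lost in 5 for CYP2C23a, in 17 for EPHX1 and in 18 for EPHX1L. Over the same alternatives 4995 to 7077 of all features were called. With the columns taken as already turned before deposit, the turned comparisons give the values as deposited. Over ages 30 enzyme genes were then called (41.8% of all features), 9 at 3 wk (6.43%), 11 at 7 wk (23.8%) and 16 at 9 wk (16.2%). At 11 wk 14 were called (10.5%), in the interaction 4 (5.69%) and in the trend 6 (5.53%). For turned ratios of 5 wk fitted alone 6 were called (0.902% of all features). For turned ratios of 7 wk (1 as reported) the count was 0 with arrays centred, scaled or weighted, with blocks of 400 spots centred, without both look-alike arrays and with the age alone, 3 with 1 spot per gene, and 0 to 6 with 1 array left out.

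For the difference between ages as deposited (4 as reported), 2 enzyme genes were called with scaled arrays, 2 with the replicate block, 9 with array weights, 2 with 1 wk replicate 4 turned, 1 without the 4 arrays that stand apart, 1 without 1 wk, and 1 to 6 with 1 array left out. At 1 wk 1 was called with scaled arrays and 2 with weights. At 3 wk (9) the counts were 16 with arrays or blocks centred, 17 scaled, 30 weighted, 15 with 1 spot per gene, 16 without the look-alike arrays, 17 alone and 1 to 18 with 1 array left out. At 5 wk 1 was called with weights and 1 alone. At 7 wk (11) there were 2 with scaled arrays, 4 with weights, 0 alone and 6 to 12 with 1 array left out, which gave 6 to 21 at 9 wk (16) and 6 to 17 at 11 wk (14). Leaving out 1 array gave 0 for every other count. Counts over all features also moved with the setting. At 3 wk they went from 955 to 1587 with arrays centred and 2076 scaled, and at 1 wk from 17 to 512 scaled. At 7 wk they went from 3533 to 2246 with arrays centred and 566 scaled, and between ages from 845 to 708 scaled. The enzyme counts above therefore do not show a shift of the enzyme genes alone. The causes were not tested.

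Same-numbered arrays deviated together no more than others (median r = -0.106 over 60 pairs of residuals, 13 of them over 0.1, against -0.113 over 180 other pairs). Of 24 arrays, 7 were most like one of their own number. The numbers go with the dye orientation, which the fit includes, and the labels do not say how they were given. Whether they pair birds or runs therefore cannot be told from these residuals. With the replicate number as a block 31 enzyme genes were called in the common term, 0 in the turned mean, and between ages CYP2AC1 (adjusted p = 0.0523) and GSTA2 (0.0532) lost the call.

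Of the estimates of single enzyme genes, 15 changed sign, 14 of them with the columns taken as already turned, namely the mean over ages of CYP17A1 (0.04) and EPHX2 (0.22), AKR1B10 at 1 wk (-0.03), GSTO2 at 1 wk (0.05), CYP2C18 at 3 wk (0.01), AKR1B1 at 5 wk (0.06), ALDH4A1 (0.01), CYP3A4 (0.00) and EPHX2 (0.18) at 7 wk, ADH4 (-0.45), CYP17A1 (0.06) and FMO4 (-0.29) at 9 wk, GSTK1 at 11 wk (-0.24) and the trend of AKR1B1 (-0.07). AKR1B10 at 1 wk also changed sign with 1 wk replicate 4 turned (-0.07). The fits without 4 arrays, without 1 wk and of each spot, and those of the trend, lists and spots with 1 wk replicate 4 turned, were chosen after seeing the data. Spot signal over background is unknown here, so that dim spots cannot be set apart.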
